A study of Mus musculus with 4 samples.

Results

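The genes that write and remove DNA methylation were examined for binding of their RNA by DHX9 in mouse embryonic stem (ES) cells. The 9 genes were Tet1, Tet2, Tet3, Tdg, Dnmt1, Uhrf1, Dnmt3a, Dnmt3b and Dnmt3l, and their members were the deposited DHX9 peaks whose midpoint fell inside one of these gene bodies on mm10, a build inferred from the chromosome names since the list states none. There were 292 such peaks among the 59563 of the list, or 0.49%. DHX9 is an RNA helicase that unwinds duplex RNA, and the series asked which RNAs it contacts in these cells.

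The samples came from WT26, a male ES cell line on a C57BL/6x129sV background that was cultured without feeders in serum and leukemia inhibitory factor. Cells were crosslinked with UV-C light and lysed. RNA was recovered with a rabbit antibody against DHX9 in 2 samples, replicates A and B, and with rabbit IgG as the control in the other two. Both arms share the cell line, medium and crosslinking and differ by antibody, and no allele was altered. Only 1 line was used, so other ES cell lines are not represented. The file used here is 1 list of peak positions with strand and without height, fold, p-value or read count. It gives nothing per sample, so no value in each replicate, no spread between replicates and no depth can be stated, and no test between DHX9 and IgG was possible. All values below describe 1 list. As a check of the labelled cell type, 7 of 8 ES cell marker genes held peaks, 140 in all, and Klf4 held none. Esrrb gave 64 of the 140, all 6 in Sox2 also lay in another gene, and 1 of the 4 in Utf1 was on the opposite strand. Of 8 markers of fibroblasts and differentiated lineages, 0 held a peak. Of all protein-coding genes 22.8% held one, so a count of 0 among 8 genes says little on its own.

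DNA methylation is placed on cytosine in CpG dinucleotides. The enzymes DNMT3A and DNMT3B, helped by the catalytically inactive DNMT3L, methylate unmodified DNA, while DNMT1 copies the pattern to the new strand after replication at sites that UHRF1 recognises. TET proteins oxidise methylcytosine, and TDG excises the most oxidised forms so that base excision repair can restore cytosine. ES cells are known to depend mainly on TET1 and TET2 among the TET proteins and to use a short isoform of DNMT3A, DNMT3A2, which is made from a promoter inside the gene. Dnmt1, too, has a promoter used in oocytes that lies before the one used in other cells.

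Start windows from RefSeq (GRCm38.p6, the assembly of mm10) served to orient the genes. Each window runs from 250 bases before to 50 bases after an annotated start, and the 9 genes had 16 of them, numbered from 5′ to 3′ within a gene. A peak on the strand of the gene lay over 2 windows, the single Tet1 window and the last of 3 Dnmt3l windows. Among protein-coding genes, 1.88% of 21263 windows were overlapped in this way, and 7.57% of the 5208 windows of genes with a peak. The 250 bases before each of these 2 starts follow, 5′ to 3′ on the strand of the gene, with the bases under the DHX9 peak in capitals. They are shown because they locate peaks that cross an annotated start.
Tet1 start 1, chr10:62887325-62887574, minus strand: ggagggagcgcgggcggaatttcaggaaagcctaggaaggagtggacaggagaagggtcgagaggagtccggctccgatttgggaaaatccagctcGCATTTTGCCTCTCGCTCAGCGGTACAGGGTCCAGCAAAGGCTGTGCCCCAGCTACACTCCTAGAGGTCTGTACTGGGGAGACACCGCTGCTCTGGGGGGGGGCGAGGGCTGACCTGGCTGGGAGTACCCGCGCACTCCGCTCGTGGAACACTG
Dnmt3l start 3, chr10:78055085-78055334, plus strand: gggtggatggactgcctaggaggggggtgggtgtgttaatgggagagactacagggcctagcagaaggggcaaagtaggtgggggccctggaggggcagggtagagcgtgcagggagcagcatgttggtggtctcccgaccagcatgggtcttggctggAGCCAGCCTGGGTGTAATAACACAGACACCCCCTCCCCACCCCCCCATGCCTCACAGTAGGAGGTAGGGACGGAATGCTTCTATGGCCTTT

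In the Tet1 window the peak covered the last 154 of the 250 bases before the start and ran on for 547 bases into the gene, a width of 701 bases. It was among the widest peaks of the 9 genes, whose widths ranged from 87 to 740 bases. The same peak also lay inside Gm51805, a long noncoding RNA gene that overlaps the start of Tet1. Further peaks on this strand lay before the Tet1 gene body, and which transcript the peak belongs to was not tested. In the Dnmt3l window a narrower peak of 135 bases took in the last 91 bases before the start and the first 44 after it. This start lies 13.0 kb inside the gene body, so the peak can also belong to RNA that began at an earlier start, and the list does not separate the possibilities.

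None of the other windows was overlapped by a peak. Some of these starts are printed with each CpG dinucleotide in capitals, because CpG is the substrate of the enzymes these genes encode and because the starts differ widely in it. Shown are the start of Tet2, the 3 starts of Dnmt1 and start 3 of Dnmt3a, the internal one.
Tet2 start 1, chr3:133544391-133544640, minus strand: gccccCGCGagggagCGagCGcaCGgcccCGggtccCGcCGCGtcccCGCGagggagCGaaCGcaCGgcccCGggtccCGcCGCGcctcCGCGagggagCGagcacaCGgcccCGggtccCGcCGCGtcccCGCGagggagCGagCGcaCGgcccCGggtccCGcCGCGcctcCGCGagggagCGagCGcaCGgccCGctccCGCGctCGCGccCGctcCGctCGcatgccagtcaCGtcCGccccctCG
Dnmt1 start 1, chr9:20959889-20960138, minus strand: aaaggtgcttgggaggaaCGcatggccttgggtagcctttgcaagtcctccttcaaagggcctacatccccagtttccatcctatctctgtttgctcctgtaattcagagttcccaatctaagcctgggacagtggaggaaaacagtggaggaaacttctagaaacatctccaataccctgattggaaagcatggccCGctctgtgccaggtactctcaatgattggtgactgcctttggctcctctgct
Dnmt1 start 2, chr9:20952980-20953229, minus strand: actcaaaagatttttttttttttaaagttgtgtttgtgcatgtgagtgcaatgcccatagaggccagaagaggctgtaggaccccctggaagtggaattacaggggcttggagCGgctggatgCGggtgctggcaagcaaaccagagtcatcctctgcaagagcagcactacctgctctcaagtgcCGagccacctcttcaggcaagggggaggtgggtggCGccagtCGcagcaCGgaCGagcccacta
Dnmt1 start 3, chr9:20952624-20952873, minus strand: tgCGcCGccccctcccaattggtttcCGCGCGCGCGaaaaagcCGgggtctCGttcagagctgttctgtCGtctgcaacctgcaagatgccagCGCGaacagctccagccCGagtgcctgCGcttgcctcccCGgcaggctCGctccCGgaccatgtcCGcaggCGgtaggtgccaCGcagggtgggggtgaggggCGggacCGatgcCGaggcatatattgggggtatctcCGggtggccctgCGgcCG
Dnmt3a start 3, chr12:3891494-3891743, plus strand: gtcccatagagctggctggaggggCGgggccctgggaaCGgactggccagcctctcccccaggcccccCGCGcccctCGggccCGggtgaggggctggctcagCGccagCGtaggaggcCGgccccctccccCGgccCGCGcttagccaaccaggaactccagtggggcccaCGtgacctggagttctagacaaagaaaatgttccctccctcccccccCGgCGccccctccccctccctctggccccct

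Over its whole 300 bases, the Tet2 window held 57 CpG, more than 99.8% of the windows of protein-coding genes, whose median was 13 (quartiles 4 and 24). The Tet1 window, which carries a peak, held 17. The 3 Dnmt1 windows held 2, 12 and 33 and the internal Dnmt3a window 18, against 46 and 47 for the windows of Dnmt3a starts 1 and 2. The last Dnmt3l window held 3. The GC box GGGCGG, read on both strands, occurred in the windows of Tet1, Tet2, Tet3, Uhrf1, Dnmt3a and Dnmt3b, in some of those of Dnmt1 and Dnmt3l, and not in that of Tdg. It occurred in 46.2% of all protein-coding windows and in 64.9% of the windows of genes with a peak. Neither window under a peak stood out for CpG: the Tet1 window exceeded 57.3% and the Dnmt3l window 18.1% of all windows. In the windows of genes with a peak the median was 23 CpG (quartiles 14 and 31), above the count of either.

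DHX9 peaks were present in 8 of the 9 genes, and Tet3 was the exception. Across protein-coding genes 22.8% held at least 1 peak (4989 of 21900), and 34.2% of the 7921 genes within the length range of the members, 20.1 to 113 kb, did. With at least 3 peaks required, the members still numbered 8, against 14.8% of protein-coding genes and 23.7% of those in the length range. The number was also 8 for peaks in no other gene and for peaks at least as wide as the median one, against 21.4% and 17.1% of protein-coding genes. Expression is not in the list, so the share cannot be separated from the amount of RNA. Over the 526 kb of the 9 gene bodies there were 0.556 peaks per kb, against 0.0538 per kb over all protein-coding genes, a ratio of 10.3. Tet1 alone held 51.7% of the 292 peaks, and without Tet1 the ratio was 5.92.

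**Figure D1:**
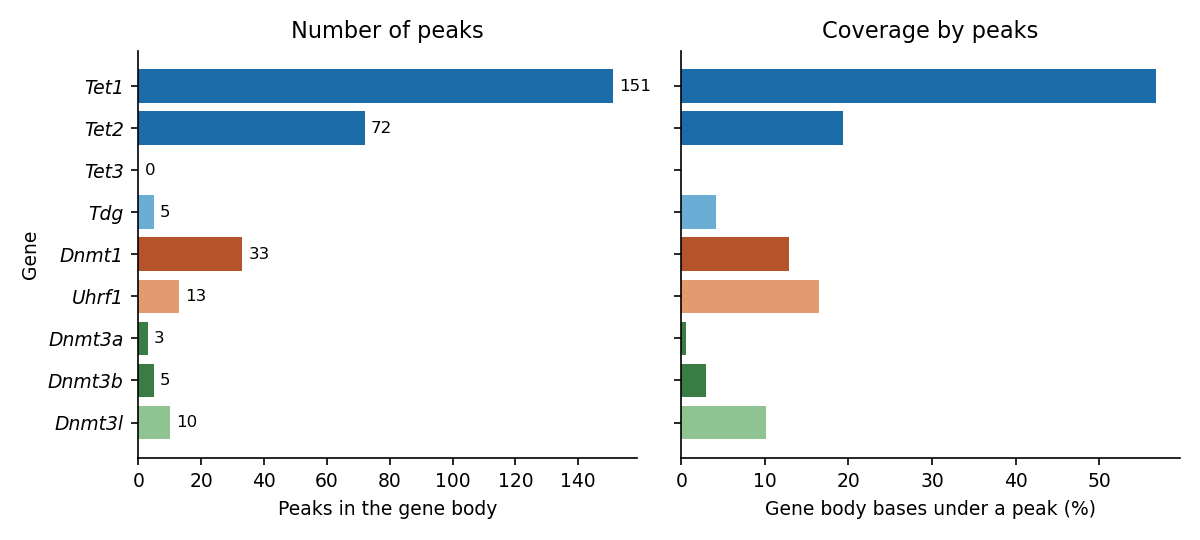
Number of DHX9 peaks in each of the 9 gene bodies (left, bars with counts) and percent of gene body bases under a peak (right); colours group TET and TDG (blues), DNMT1 and UHRF1 (oranges) and the DNMT3 genes (greens). Tet1 leads both panels with 151 peaks and 56.8% of its bases, and Tet3 has no bar.

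All 292 peaks lay on the strand from which the gene is transcribed. The strand was taken from the RefSeq start windows, which give it for 17492 of 21900 protein-coding genes. In the 4051 of these with a peak, 929 of 46160 peaks (2.01%) were on the opposite strand, genes that overlap others included. Genes that run opposite to a member added no peaks: Dnmt3aos and Gm31623, noncoding RNA genes on the minus strand inside Dnmt3a, held 0, and so did B230319C09Rik, opposite to Tet3. The stretch that Dnmt3l shares with Aire held none either. The only overlapping gene with peaks of a member was Gm51805, a long noncoding RNA gene of unstated strand at the start of Tet1, which shared 28 of the 151. The other 264 peaks of the 9 genes lay in no second gene.

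The counts of the 3 TET genes differed widely. Tet1, the main TET enzyme gene of ES cells (chr10:62804570-62887469, 82.9 kb), held 151 peaks, or 1.82 per kb, the 12th highest number of any protein-coding gene. Tet2, the partner TET enzyme gene (chr3:133463677-133545136), is of nearly the same length at 81.5 kb and held 72, or 0.884 per kb, which placed it 93rd. Tet3, known mainly from the oocyte and from neurons, is longer at 94.8 kb (chr6:83362373-83457208) and held 0. Tet1 thus had 2.10 times the number in Tet2. These are 3 counts from 1 list, with no error between replicates, and the absence of peaks in Tet3 cannot be told apart from a lack of Tet3 RNA in the cells.

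The peaks of Tet1 were also wide and closely packed. Their median width was 285 bases, the range was 99 to 740, and 77.5% reached the 196-base median of the whole list. Among 822 protein-coding genes with at least 20 peaks, in which the middle gene had a median width of 201 bases (quartiles 184 and 222), Tet1 ranked 19th. Peaks covered 56.8% of the Tet1 gene body, 20th of those genes, whose median was 17.6%. Tet2 peaks had a median width of 218 bases and a range of 95 to 496, and they covered 19.4% of the gene. The median space between neighbouring peaks was 112 bases in Tet1 and 281 in Tet2. When peaks within 50 bases were merged, Tet1 had 103 and Tet2 had 66, and the ratio of the counts narrowed from 2.10 to 1.56.

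**Figure D2:**
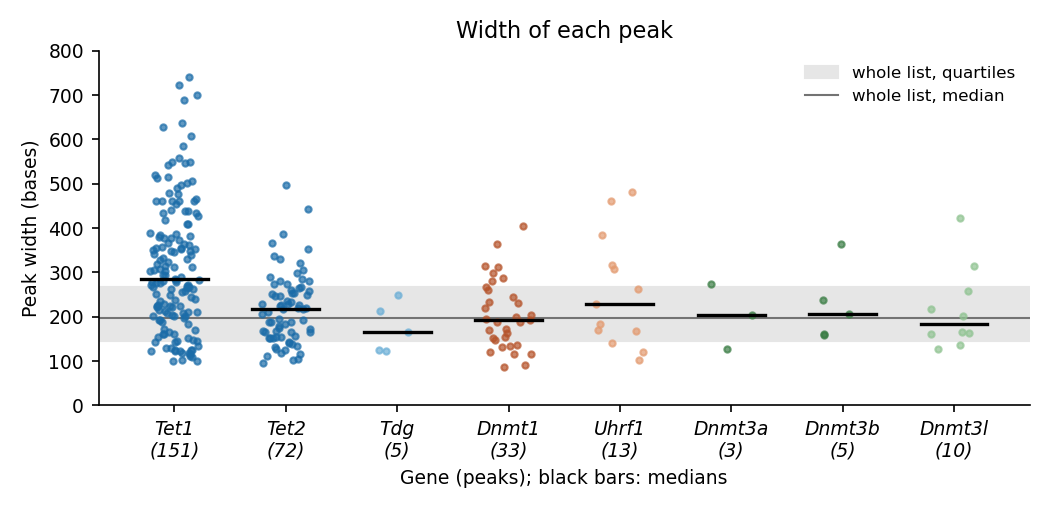
Width in bases of every peak (points) in the 8 genes that held one, with the gene's median as a black bar; the grey line and band are the median and the quartiles of all 59563 peaks. The Tet1 median of 285 bases lies above the band, whose upper edge is 268 bases, and the other 7 medians, 166 to 229 bases, lie inside it.

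In runs, defined as 2 or more peaks on 1 strand with at most 500 bases between neighbours, stood 149 of the 151 Tet1 peaks, in 16 runs. The longest run had 34 peaks over 15.2 kb and began 29.3 kb from the 5′ end, and the next had 23 peaks over 8.79 kb and closed 0.331 kb before the 3′ end of the gene. The longest space without a peak was 2.33 kb. In Tet2 56 of 72 peaks stood in runs, of at most 10 peaks over 3.27 kb. Among the 822 genes the longest run had a median of 12 peaks, so that of Tet1 was above the middle of these genes and that of Tet2 below it.

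Along the gene, Tet1 peaks were spread over the whole body and were fewest near the annotated start. Divided into 5 segments of equal length, the gene held 20, 23, 39, 34 and 35 peaks from 5′ to 3′. The first segment had 13.2% of the peaks and the last 23.2%. Over 658 protein-coding genes of known strand with at least 20 peaks, the medians were 26.0% in the first segment and 7.69% in the last. A first-segment share as low as that of Tet1 or lower was found in 159 of the other genes. The last-segment share of Tet1 was reached by 98 of them. All Tet1 peaks of the first segment also lay inside Gm51805. In Tet2 the first peak lay 1.19 kb from the 5′ end, the segments held 18, 5, 22, 16 and 11 peaks, and a stretch of 14.2 kb from 21.6 to 35.8 kb was free of them. The stretch separated 23 peaks on the 5′ side from 49 on the 3′ side.

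Peaks did not stop at the annotated 5′ end of Tet1. On the same strand 38 further peaks followed, from chr10:62887954 to 62903222, which reach 15.8 kb beyond the gene body. No space between them was longer than 466 bases, and the nearest was 484 bases from the gene. They had a median width of 242 bases and a density of 2.41 per kb, above the 1.82 per kb inside the gene. All 38 lay inside Gm51805 (chr10:62865670-62910643), whose 66 peaks are these and the 28 shared with Tet1. After them, the last 7.42 kb of Gm51805 had none, and the next peak, 18.0 kb further on, was on the plus strand, that of the neighbouring gene Slc25a16. At the 3′ end, the 12.2 kb between Tet1 and Ccar1 held 1 peak, on the plus strand. Tet1 with this extension had 189 peaks over 98.7 kb, in segments of 43, 24, 36, 50 and 36, so the low first segment was not seen when the upstream peaks were counted with the gene.

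**Figure D3:**
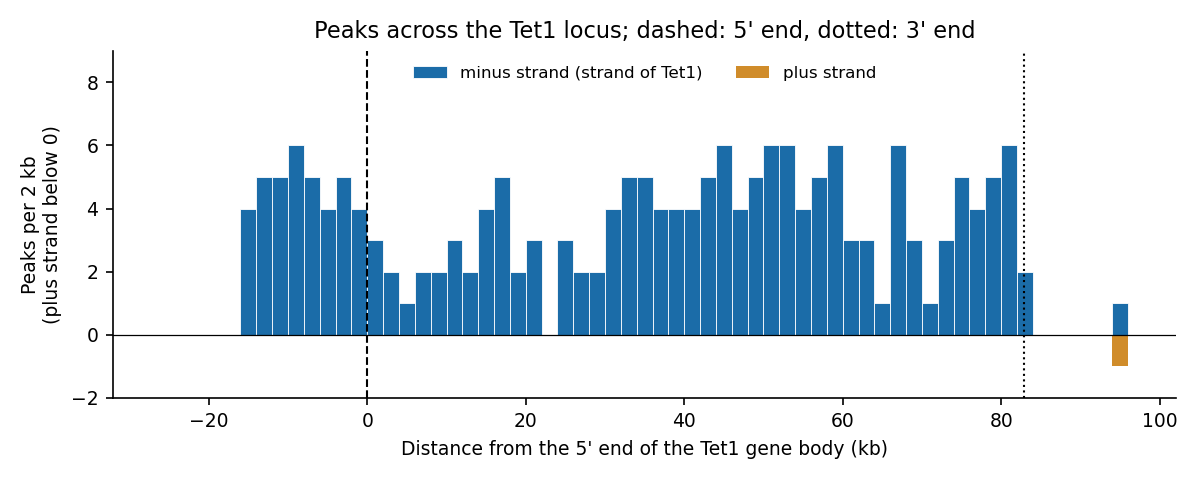
Peaks per 2 kb on the minus strand, that of Tet1 (bars above 0), and on the plus strand (bars below 0) by distance in kb from the 5′ end of the Tet1 gene body; the dashed line is its 5′ end and the dotted line its 3′ end. The minus-strand peaks begin 15.8 kb before the dashed line and end just inside the dotted line; the minus-strand bar at the far right is a peak of Ccar1.

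Such a continuation was uncommon among genes with many peaks. Of the same 658 genes, 18 (2.74%) had same-strand peaks that continued before the gene body in no other protein-coding gene, with spaces of at most 2 kb, and 5 had 10 or more. Tet1 came after Usp7 with 69 and was followed by Kat6b with 37, Mtf2 with 12 and Taf1 with 11. Usp7, a ubiquitin protease known to act on UHRF1 and DNMT1, held 61 peaks inside the gene. Tet2 and Dnmt1 had 0 such peaks. This comparison was chosen after the Tet1 peaks were seen, and which transcript the upstream peaks belong to was not tested.

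Tdg, the glycosylase gene that acts after the TET enzymes (chr10:82629814-82650799, 21.0 kb), held 5 peaks, or 0.238 per kb. Their widths were 123 to 250 bases. The first lay 2.10 kb from the 5′ end, 4 lay within 4.83 kb of it, and the last stood alone at 16.1 kb after a space of 11.2 kb. Tdg was therefore the only gene besides Tet1 and Tet2 with peaks in its first segment. Of 2502 protein-coding genes within 20% of its length, 14.4% held as many peaks or more.

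**Figure D4:**
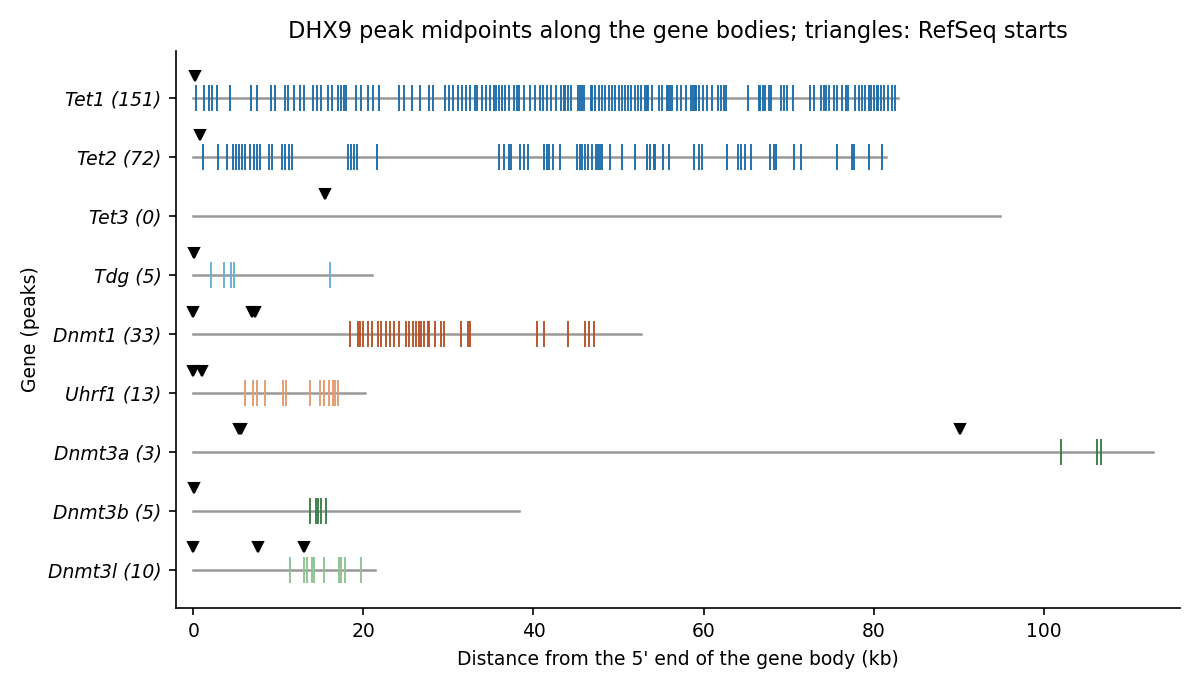
Midpoints of all 292 peaks (vertical ticks) along the 9 gene bodies (grey lines), in kb from the 5′ end, with RefSeq starts as triangles and peak counts in brackets. Ticks fill Tet1 and much of Tet2, lie mostly in the middle of Dnmt1 and near the 3′ end of Dnmt3a. Only Dnmt3l has ticks before its last triangle.

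Among the maintenance genes, Dnmt1 (chr9:20907206-20959888, 52.7 kb), the methyltransferase gene, held 33 peaks, the 392nd highest number, or 0.626 per kb. By peaks per kb, Dnmt1 ranked 748th among protein-coding genes of at least 10 kb. Uhrf1 (chr17:56303337-56323486, 20.1 kb), its cofactor gene, held 13, or 0.645 per kb. The densities of the pair were thus close, although the counts were not. Widths were 87 to 405 bases in Dnmt1 (median 192) and 102 to 482 in Uhrf1 (median 229), and peaks covered 12.9% and 16.5% of the genes.

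Neither gene had a peak near a start. The first Dnmt1 peak lay 18.4 kb from the 5′ end, which is 11.5 kb after start 2 and 11.2 kb after start 3. From there to 32.6 kb there were 27 peaks, and the longest runs among them had 11 and 9. A space of 7.75 kb followed, and the remaining 6 peaks lay between 40.5 and 47.1 kb. The 5 segments held 0, 6, 19, 4 and 4 peaks, so the middle one had 57.6%. Of the 657 other genes, 51 had likewise no peak in the first segment. The Dnmt1 gene body is measured from start 1, and starts 2 and 3 lie 6.9 and 7.3 kb inside it. Much of the first segment therefore precedes these later starts. Mir7081, a microRNA gene inside Dnmt1, was not overlapped, and the nearest peak was 137 bases away. In Uhrf1 the first peak lay 6.05 kb from the 5′ end and 5.07 kb after start 2. Its later segments held 3, 3, 4 and 3 peaks, and the longest run had 6 peaks over 2.50 kb, from 14.7 to 17.2 kb.

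The de novo methylation genes each held fewer peaks than Tet1, Tet2, Dnmt1 or Uhrf1. Dnmt3a, Dnmt3b and Dnmt3l together had 18, or 6.16% of the 292, in 173 kb. Their density of 0.104 per kb was above the 0.0538 per kb over all protein-coding genes. Dnmt3a, the longest of the 9 at 113 kb (chr12:3801559-3914443), held 3. Dnmt3b (chr2:153649411-153687730, 38.3 kb) held 5, and the regulatory factor gene Dnmt3l (chr10:78042287-78063622), the shortest of these at 21.3 kb, held 10. Density fell with length among the 3 genes, from 0.469 per kb in Dnmt3l to 0.130 in Dnmt3b and 0.0266 in Dnmt3a.

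In none of these 3 genes was there a peak near the 5′ end of the gene body. The 3 Dnmt3a peaks, at chr12:3903526-3903651, chr12:3907736-3908009 and chr12:3908217-3908420, all lay in the last segment of the gene, 102 to 107 kb from the 5′ end. They came after the internal start at 90.2 kb, the first of them 11.8 kb after it, and there was no peak in the 84.6 kb between starts 2 and 3. With 3 peaks the list gives little weight to this placement, and RNA from an earlier start would also pass through these positions. The 5 Dnmt3b peaks lay within 2.03 kb, from chr2:153663070 to 153665096, which is 13.8 to 15.6 kb from the 5′ end by midpoint. In Dnmt3l the first peak lay at 11.4 kb and the other 9 from 13.0 to 19.7 kb, in the last 2 segments. The Dnmt3l gene body is measured from start 1, and its first peak lay 3.86 kb after start 2. Between starts 1 and 2 of Dnmt3l, 7.56 kb apart, there was none.

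By the number of peaks the 9 genes thus ranked Tet1, Tet2, Dnmt1, Uhrf1, Dnmt3l, Tdg and Dnmt3b with 5 each, Dnmt3a and Tet3. By peaks per kb, Uhrf1 at 0.645 and Dnmt1 at 0.626 changed places and Tdg at 0.238 passed Dnmt3b at 0.130. With no replicate values, which neighbours in these orders differ beyond their error cannot be stated. Most genes of like length held no peak: the median was 0 among the genes within 20% of the length of any of the 9. As many peaks as in Tet1 were found in 1 of 1327 such genes, as many as in Tet2 in 25 of 1354 and as many as in Dnmt1 in 88 of 1760. For Uhrf1 it was 6.66%, for Dnmt3l 9.17%, for Dnmt3b 19.6% and for Dnmt3a 24.6% of the genes of like length.

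The genes of like length that came closest in density were taken for the 3 members with at least 20 peaks. For Tet1 they were Akap12, a kinase anchor protein gene, with 159 peaks and 1.71 per kb, and Gm21992 with 111 and 1.62 per kb. For Tet2 they were Cnot1, the scaffold gene of the CCR4-NOT deadenylase, with 79 peaks and 0.886 per kb, and the transcription factor gene Gtf2i with 70 and 0.877 per kb. For Dnmt1 they were Tada2a, a histone acetyltransferase adaptor gene, with 32 peaks and 0.631 per kb, and Dnajc11 with 30 and 0.622 per kb. Of the Akap12 peaks, 111 lay in no other gene, and of those of Gm21992, 53.

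Other genes of the pathway were taken from a list drawn up with earlier results of these data known. It was not matched on length or expression. Of 52 such genes in 5 groups, 22 (42.3%) held a peak, 297 in all, against the 22.8% of protein-coding genes. Every one of the 22 had its peaks on 1 strand. In the 20 whose strand RefSeq gives, all 290 peaks were on the strand of the gene. The median number over the 52 genes was 0, as it was over all protein-coding genes.

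Among cofactors and relatives of the methyltransferases, 8 of 13 genes held peaks. Usp7 led with 61 peaks. Hells, the chromatin remodeller gene needed for methylation of repeats, held 36, all on its own strand and at 0.895 per kb close to Tet2. The imprint regulators Trim28 and Zfp57 held 15 each, in short genes of 6.88 and 9.57 kb. Uhrf2, the relative of Uhrf1, held 4 over 63.3 kb. Dppa3 and Prdm14, which restrain methylation in ES cells, held 0, as did Cdca7, the RNA methyltransferase gene Trdmt1 and Dnmt3c, a rodent methyltransferase of the germ line.

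Among partners and cofactor suppliers of the TET enzymes, 5 of 12 genes held peaks. Ogt, the gene of the O-GlcNAc transferase that binds TET proteins, held 46 over 44.3 kb. Dcaf1, a ubiquitin ligase subunit gene, held 24, Lin28a 13, the corepressor gene Sin3a 12 and Cxxc5 4. The isocitrate dehydrogenase genes Idh1, Idh2 and Idh3a and the 3 Gadd45 genes held 0.

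The last 3 groups read methylation, finish its removal and supply the methyl group. Of 7 methyl-CpG reader genes, Mbd4 held 4 peaks and the other 6, Mbd3 and Zbtb33 among them, held 0. Of 11 base excision repair genes, 3 held peaks: Parp1 with 23, Xrcc1 with 8 and the polymerase gene Polb with 3. The glycosylase genes Ung, Smug1, Neil1, Neil2 and Neil3 and the endonuclease gene Apex1 held 0. Of 9 genes that supply the methyl donor S-adenosylmethionine or clear its product, 5 held peaks. Mat2a, the synthase gene of most tissues, held 7 in 6.76 kb, Ahcyl2 held 7 in 144 kb, Mat2b 2 and Mtr and Mtrr 1 each, while Ahcy held 0. These groups were not matched on length or expression, so their shares are not set against one another.

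**Figure D5:**
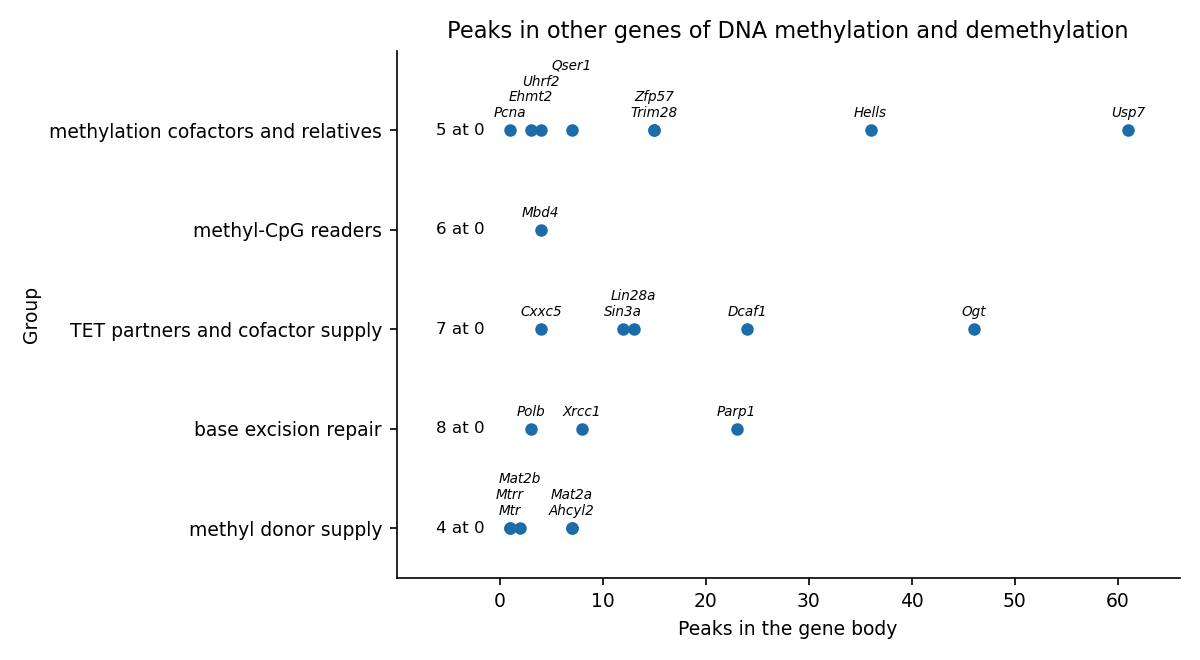
Peaks in the gene body (horizontal axis) of 52 other genes of DNA methylation and demethylation, in 5 groups; each point is a gene with a peak and the number at the left of a row counts genes with 0. Usp7 with 61, Ogt with 46 and Hells with 36 lie furthest to the right.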

How the data were processed

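The file used here, as the authors deposited it, is 1 list of peak positions. They were made with the peak caller PEAKachu, per the labels in the file itself, with version, settings and the use of replicates and IgG not given in the sources used here. The aligner Bowtie2 2.2.6 and the builds hg19 and mm10 come from the submitters' processing notes. The list does not state its build, and mm10 was inferred from its chromosome and scaffold names, which are those of the mouse assembly. The deposited values are first and last bases in a unit of other kind (positions) and the score field is empty in all 59563 rows, so depth is unknown.

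Peaks were assigned by midpoint to every RefSeq gene body (GRCm38.p6, 49997 placed genes). Strand, starts and sequences came from RefSeq start windows, which run along the gene in all 1003 overlapping minus-strand pairs checked. Exons and introns were not analysed here. Runs joined peaks within 500 bases. Computation used Python 3.11.15, numpy 2.4.6 and pandas 2.3.3. On simulated data the counts and positions were recovered in 200 of 200 genes. Named genes were the 9 members, up to 3 pathway genes with the most peaks and some without one in each group (others in the text were chosen after their values were seen), overlapping genes, and, for members with at least 20 peaks, the nearest genes in density among those within 20% of the length. The members and lists were chosen with earlier results of these data known. 1 gene of the pathway list as first drawn up was left out of every count and is not reported here. No chance test was made.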

Additional observations from a re-analysis of the deposited data

How the results depend on the processing

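No paired analysis was possible because the list holds no value per replicate, and for the same reason no replicate could be left out. Of 57 values recomputed under other settings, 45 stayed within 1.5 times (for the position share, within its 95% interval) and 12 did not. The number of genes with a peak was 8 in every setting run: at least 3 peaks, peaks no narrower than the median, and peaks in no other gene. The 292 peaks became 190 when peaks narrower than the median were dropped. Per kb, the ratio to all protein-coding genes was 10.3 and ranged from 9.59 with peaks within 50 bases merged to 12.6 with covered bases; without Tet1 it was 5.92. The 42 runs became 26 without Tet1. Of the peaks in the first and last of 5 equal segments, 40.0% were in the first. This share was 25.0% for peaks in no other gene, a setting that drops Tet1 peaks in Gm51805, and 50.8% with Tet1 extended upstream. Its Wilson 95% interval, 30.9 to 49.8%, holds counting error only and served as a cut-off for the settings. The interval treats peaks as independent, although 149 of the 151 Tet1 peaks stood in runs, and gives no spread between genes or replicates. For single genes, the filter on median width left 39 peaks in Tet2, 15 in Dnmt1, 7 in Uhrf1, 5 in Dnmt3l, 3 in Dnmt3b and 2 in Tdg, and merging left 3 in Dnmt3b. The settings without Tet1, with its extension and the width filter for pathway genes were chosen after seeing the data. Depth limits what a missing peak means, since the list states neither reads nor a detection limit.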

Other observations

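A small nuclear RNA gene, Gm26479, lies among the peaks upstream of Tet1 and was overlapped by 1 of them. Within 20 kb of Dnmt1 but outside it, 2 small nucleolar RNA genes, LOC115487308 and LOC115487312, were overlapped by 2 and 1 peaks, whereas the microRNA gene Mir6374 inside Tet3 was not overlapped. Ccar1, the gene that follows Tet1 on the same strand, held 63 peaks of its own.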
